A study of Mus musculus with 12 samples.

Results

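The Cyp4a genes encode cytochrome P450 enzymes that hydroxylate the far (omega) end of fatty acids. The 6 members described here (Cyp4a10, Cyp4a12a, Cyp4a12b, Cyp4a14, Cyp4a31 and Cyp4a32) were taken by symbol from the 24062 gene symbols in the count tables, where 8 symbols begin with Cyp4a. The other two, Cyp4a29 and Cyp4a30b, carried hardly any reads and were left out. The members were picked with the response of the MYC-ON livers to diet already known, so their values in that comparison are given below as a description without a test.

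RNA-seq was performed on 12 mouse samples in 4 groups of 3 mice. Polyadenylated RNA came from MYC-ON livers or from HCC53N xenografts, and mice of each model received either the control diet or a diet lacking tryptophan (No-Trp) for 21 days. The livers were from FVB mice carrying LAP-tTA, which drives expression in hepatocytes, and the TRE-MYC transgene. Breeders drank doxycycline at 1 mg/mL, which keeps MYC off, and its withdrawal at birth switched MYC on in the livers of both diet groups. The labels describe MYC males aged 45 days in a comparison with wild-type mice and do not say whether this age holds for the mice on the 2 diets. The study's methods state that males of this model were used, because the MYC transgene lies on the Y chromosome. HCC53N is 1 cell line from mouse liver tumors that lack p53 and overexpress mutant NRAS. The labels also name a MYC origin for these cells, which the study's methods do not. HCC53N was grown under the skin of NOD SCID mice. The study's methods name females and add that experiments were repeated in males, so the sex of the sequenced hosts is not certain. The xenografts therefore differ from the livers in site, host strain and tumor genotype at once, and possibly in sex. A liver sample is bulk tissue, in which fewer cells of a type and less RNA per cell cannot be told apart. The labels do not say how many tumors each sample holds, and p-values measure the spread between these samples.

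Omega-hydroxylation is a minor route of fatty acid use in a fed liver and gains weight when fatty acids are abundant, as in fasting. Transcription of several Cyp4a genes, Cyp4a10 and Cyp4a14 above all, is switched on by the nuclear receptor PPARα, which binds DNA with RXR and senses fatty acids. Cyp4a12a and Cyp4a12b are known instead as male-biased, androgen-dependent genes, and Cyp4a12a makes 20-HETE, a vasoactive lipid, from arachidonic acid.

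All members lie in 1 cluster on chromosome 4, spanning 322.6 kb (GRCm38, GENCODE M21 gene models). In order along the chromosome they are Cyp4a12a (chr4:115299046-115332815, plus strand), Cyp4a12b (chr4:115411624-115439034, plus strand), Cyp4a14 (chr4:115486200-115496142, minus strand), Cyp4a10 (chr4:115518264-115533649, plus strand), Cyp4a31 (chr4:115563649-115579015, plus strand) and Cyp4a32 (chr4:115600969-115621602, plus strand). The members fall into near-identical copies, which matters because a read that fits several copies cannot be assigned. The coding sequences of Cyp4a12a and Cyp4a12b differed at 23 of 1524 bases (98.5% identity). Cyp4a10 differed from Cyp4a32 at 43 of 1527 bases (97.2%) and from Cyp4a31 at 52 (96.6%). Cyp4a14 stood apart, with 75.1% to 75.9% identity to every other member. The first 90 coding bases show this grouping. They lie in the first exon, and capitals mark bases that differ from Cyp4a10 for Cyp4a14, Cyp4a31 and Cyp4a32, and from Cyp4a12a for Cyp4a12b.
Cyp4a10: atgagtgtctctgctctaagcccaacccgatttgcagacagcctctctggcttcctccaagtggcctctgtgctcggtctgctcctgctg
Cyp4a32: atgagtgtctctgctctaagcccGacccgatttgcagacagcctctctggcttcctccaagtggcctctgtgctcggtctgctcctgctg
Cyp4a31: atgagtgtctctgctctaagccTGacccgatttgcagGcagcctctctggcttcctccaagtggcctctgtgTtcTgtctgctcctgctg
Cyp4a14: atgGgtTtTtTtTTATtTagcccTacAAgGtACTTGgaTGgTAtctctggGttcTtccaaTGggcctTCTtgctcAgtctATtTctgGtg
Cyp4a12a: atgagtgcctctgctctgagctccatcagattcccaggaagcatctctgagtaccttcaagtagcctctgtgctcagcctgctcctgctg
Cyp4a12b: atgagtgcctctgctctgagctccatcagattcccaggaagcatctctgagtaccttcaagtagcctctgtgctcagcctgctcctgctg
In this stretch Cyp4a32 differed from Cyp4a10 at 1 base, Cyp4a31 at 5 and Cyp4a14 at 34, while Cyp4a12a and Cyp4a12b were identical. The stretches are chr4:115518322-115518411 for Cyp4a10, chr4:115600975-115601064 for Cyp4a32, chr4:115563717-115563806 for Cyp4a31, chr4:115496024-115496113 for Cyp4a14 (minus strand), chr4:115299128-115299217 for Cyp4a12a and chr4:115411683-115411772 for Cyp4a12b.

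**Figure D1:**
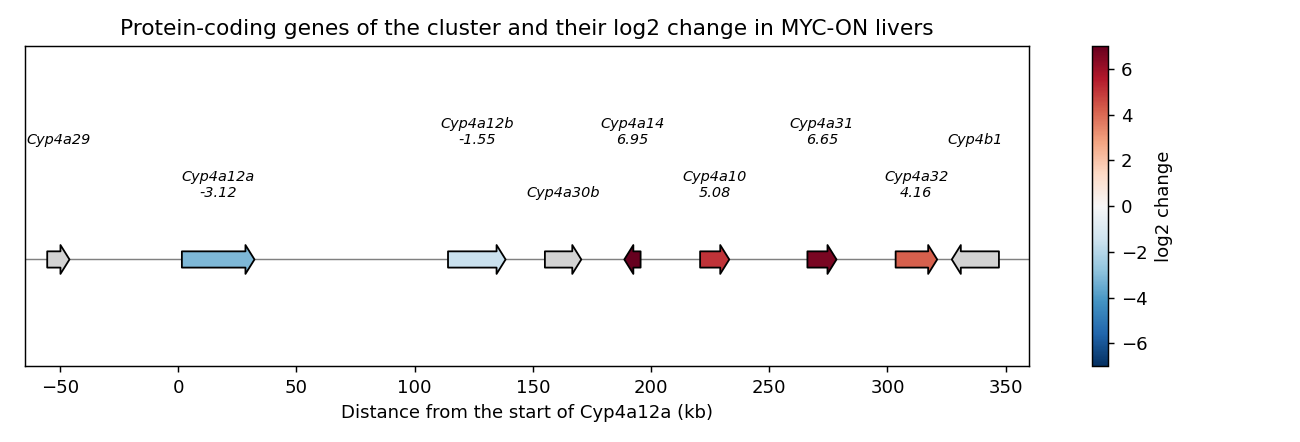
Protein-coding genes of the Cyp4a cluster drawn to scale as arrows in the direction of transcription, with the distance from the start of Cyp4a12a in kb on the x axis. Color and number give the log2 change of each member in MYC-ON livers on the No-Trp diet. The genes with positive values, from 4.16 to 6.95, sit side by side in the right part of the cluster, and Cyp4a12a (-3.12) and Cyp4a12b (-1.55) lie to the left; grey genes are not members.

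Each library held 14660963 to 26085349 reads assigned to genes. Reads that aligned to several places were left out of the gene counts and made up 5.24% to 8.52% of each library. For windows of 100 bases along the main transcript, all of those of Cyp4a14 occurred in no other transcript, against 91.8% for Cyp4a31, 87.3% for Cyp4a10, 79.9% for Cyp4a32, 64.2% for Cyp4a12a and 63.8% for Cyp4a12b. Levels of the near-identical copies are therefore uncertain, and Cyp4a14 shared no such window. A small annotated gene on the opposite strand, Gm12837, lies within Cyp4a12b, and without a stated strand setting its reads cannot be told apart from those of Cyp4a12b where exons coincide. The livers are FVB and the reference is C57BL/6J. The part of strain differences in assigning reads among copies was not tested. Levels are given as CPM, which are counts scaled to library size, with TMM factors over the 12 libraries.

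Cyp4a14, a PPARα-responsive omega-hydroxylase, was the most abundant member in No-Trp livers. Control mice 101, 102 and 103 had 4.05, 36.6 and 14.7 CPM, and No-Trp mice 105, 107 and 108 had 1673, 3310 and 1753 CPM. Every No-Trp liver was far above every control liver. The log2 change was 6.95 (SE 0.92), a 124-fold higher level. Cyp4a10, which responds to the same receptor, was at 3.52, 47.6 and 12.1 CPM in the control livers and at 412.9, 920.1 and 756.9 CPM in the No-Trp livers. The groups again did not overlap, and the log2 change was 5.08 (SE 0.98). In both genes control mouse 102 was the highest of the control livers and mouse 107 the highest of the No-Trp livers.

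Cyp4a31 and Cyp4a32, the copies closest to Cyp4a10, behaved alike in direction. Cyp4a31 was near the limit of detection in control livers, with 5, 11 and 8 reads (0.241, 0.620 and 0.319 CPM), and had 629, 853 and 359 reads (36.0, 52.5 and 27.9 CPM) in No-Trp livers. Its log2 change was 6.65 (SE 0.44), with the smallest SE of the 6 members. Cyp4a32 was at 3.38, 28.2 and 3.83 CPM in control livers and 202.9, 249.5 and 166.5 CPM in No-Trp livers, a log2 change of 4.16 (SE 0.88). Neither gene had groups that overlapped. With the reads of Cyp4a10, Cyp4a31 and Cyp4a32 summed to 1 row, the log2 change was 4.85, which is smaller than that of Cyp4a31 alone.

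Cyp4a12a and Cyp4a12b went the other way. Cyp4a12b had 31.7, 30.3 and 23.6 CPM in the control livers, the tightest control values of any member (28.5 ± 4.34, SD, n = 3), and 12.4, 1.78 and 14.8 CPM in the No-Trp livers. Every No-Trp liver was lower, with a log2 change of -1.55 (SE 0.65). Cyp4a12a had 19.3, 164.6 and 10.1 CPM in control livers and 7.09, 2.64 and 12.3 CPM in No-Trp livers. Here the groups overlapped, since No-Trp mouse 108 was above control mouse 103. The log2 change of Cyp4a12a was -3.12 (SE 1.13) and was -1.01 without control mouse 102. Reads of Cyp4a12a were 5.44 times those of Cyp4a12b in mouse 102, against 0.610 and 0.429 times in control mice 101 and 103.

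**Figure D2:**
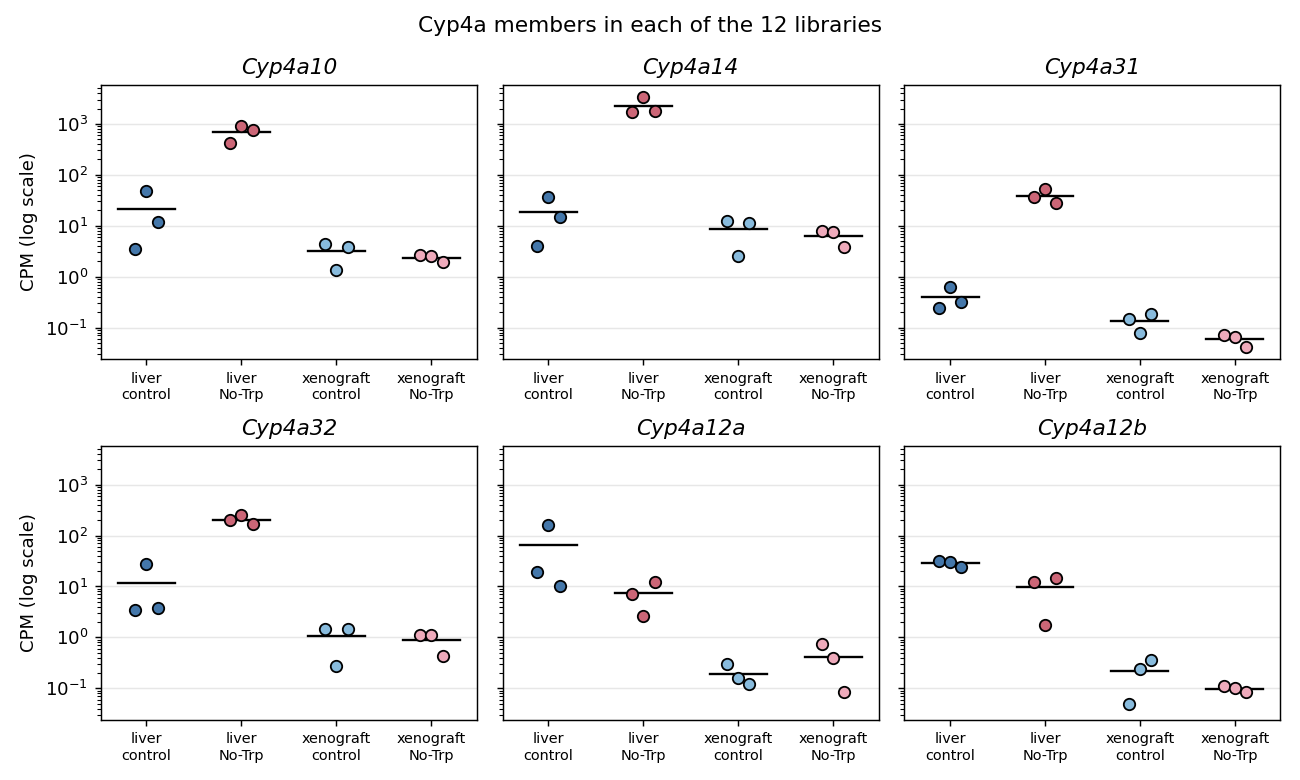
CPM of each member on a log scale, with 1 point per mouse, a bar at the group mean and 3 mice in each of 4 groups. For Cyp4a10, Cyp4a14, Cyp4a31 and Cyp4a32 the 3 No-Trp livers lie above all other samples, whereas Cyp4a12a and Cyp4a12b have group means of 64.7 and 28.5 CPM in control livers and 7.34 and 9.68 CPM in No-Trp livers.

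Genes were called at edgeR's adjusted p of at most 0.05 and a change of 1 or more on the log2 scale. Of the 14122 genes tested in the livers, 9.28% were called higher, 7.27% lower and 16.5% in either direction. In the same livers 23.6% of all genes had No-Trp mice wholly above control mice and 25.0% wholly below. Since the members were picked on this comparison, no count of calls is given for them and nothing is read from their lack of overlap. Leaving out control mouse 102 raised the log2 change to 6.47 for Cyp4a10, 7.89 for Cyp4a14, 7.07 for Cyp4a31 and 5.83 for Cyp4a32. Livers 101 and 108 carry a resubmission mark in the file naming, 1 on each diet. Between these marked livers the log2 differences of No-Trp from control were 7.71 for Cyp4a10, 8.72 for Cyp4a14, 6.38 for Cyp4a31, 5.58 for Cyp4a32, -0.65 for Cyp4a12a and -1.09 for Cyp4a12b. Among the unmarked livers they were 4.68, 6.66, 6.32, 4.42, -3.21 and -2.47 in the same order. Both splits reuse livers of the comparison on which the members were picked, so nothing is read from the shared directions.

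These opposite changes altered which genes make up the family's RNA. In control livers Cyp4a12a and Cyp4a12b together held 82.0%, 63.3% and 52.1% of the summed CPM of the 6 members. In No-Trp livers they held 0.832%, 0.0976% and 0.993%. Cyp4a14 went from 13.7% ± 8.28 to 69.5% ± 4.68 of the sum (SD, n = 3 each). The sum itself was 144.9 ± 141.1 CPM in control livers and 3204 ± 1170.0 CPM in No-Trp livers. In counts this was 40983 of 20102837 assigned reads in No-Trp mouse 105, 73762 of 23751118 in 107 and 35150 of 14865881 in 108. Shares that rest on the copies carry the uncertainty in read assignment given above. The share of both Cyp4a12 genes together does not depend on how reads are split between them, but it lacks the reads that fit both.

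**Figure D3:**
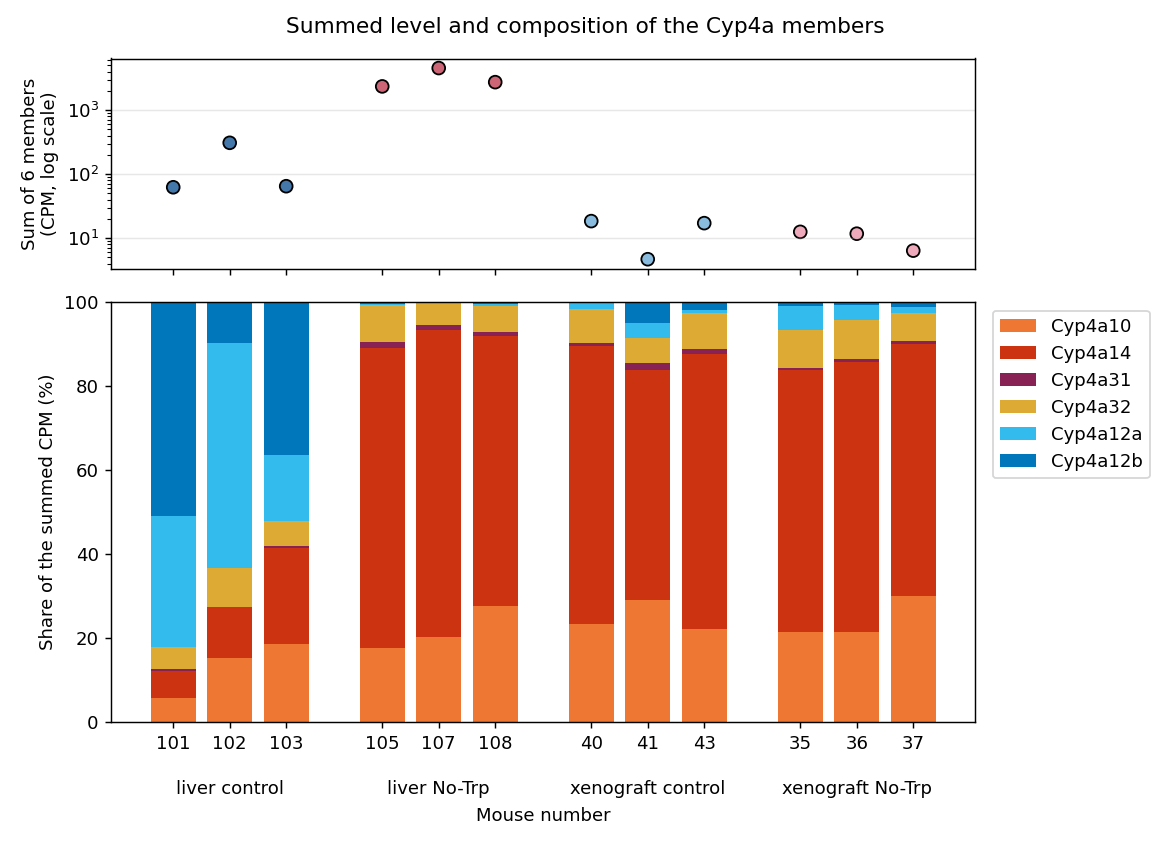
The upper panel gives the summed CPM of the 6 members on a log scale and the lower panel the share of each member in that sum in percent, for each of the 12 mice. Blue shades (Cyp4a12a and Cyp4a12b) fill 52.1% to 82.0% of the bar in control livers and under 1% in No-Trp livers, and Cyp4a14 fills most of the bar in No-Trp livers and in every xenograft.

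Levels of different genes were compared as CPM per kb of annotated exon. In No-Trp livers the order was Cyp4a14 (863.3 ± 354.8, SD, n = 3), Cyp4a10 (330.3 ± 122.7), Cyp4a32 (134.3 ± 27.1), Cyp4a31 (15.5 ± 4.99), Cyp4a12b (4.04 ± 2.90) and Cyp4a12a (3.03 ± 1.99). Neighbors in this order did not overlap over the 3 mice, apart from Cyp4a12b and Cyp4a12a. In control livers the order was Cyp4a12a (26.7 ± 35.8), Cyp4a12b (11.9 ± 1.81), Cyp4a10 (9.98 ± 11.1), Cyp4a32 (7.68 ± 9.24), Cyp4a14 (7.10 ± 6.39) and Cyp4a31 (0.157 ± 0.0797). The first 5 overlapped with their neighbors, and Cyp4a31 was below all other members in every control liver. The gene model of Cyp4a32 holds almost no UTR (1536 exon bases, against 2109 for Cyp4a10), so its level per kb is not measured over the same parts of the transcript.

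In the HCC53N xenografts all members were low, and 3 of the 6 (Cyp4a10, Cyp4a14 and Cyp4a32) passed the filter on low counts. Cyp4a14 had 12.2, 2.55 and 11.2 CPM in control xenografts 40, 41 and 43 and 7.76, 7.51 and 3.82 CPM in No-Trp xenografts 35, 36 and 37. The groups overlapped, with a log2 change of -0.45 (SE 0.56, 95% interval -1.75 to 0.84, edgeR adjusted p = 0.730). For Cyp4a10, at 4.32, 1.36 and 3.78 CPM against 2.68, 2.50 and 1.91 CPM, the log2 change was -0.42 (SE 0.47, 95% interval -1.49 to 0.66, edgeR adjusted p = 0.697). For Cyp4a32, at 1.47, 0.279 and 1.46 CPM against 1.12, 1.10 and 0.424 CPM, it was -0.27 (SE 0.68, 95% interval -1.81 to 1.28, edgeR adjusted p = 0.876). Of the 3 members tested, edgeR called 0 and 0 had an unadjusted p under 0.05, and DESeq2 called 0 of the 4 it tested, beside 0.360% of the 14704 genes called by edgeR, with 0.245% higher and 0.116% lower. Control xenografts 41 and 43 carry the resubmission mark, whereas none of the No-Trp xenografts does. In xenografts the mark and the diet therefore partly coincide. Among unmarked xenografts, 3 on No-Trp and 1 on control, the log2 differences were -0.86 for Cyp4a10, -0.99 for Cyp4a14 and -0.78 for Cyp4a32.

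The other 3 members did not pass the filter. Cyp4a12a had 2 to 6 reads per control xenograft and 2 to 20 per No-Trp xenograft, Cyp4a12b had 1 to 6 and 2 to 3, and Cyp4a31 had 2 to 3 and 1 to 2. A change of these genes with diet was not detectable at this depth, and no fold is given. In both diet groups the make-up of the family differed from that in control livers. Cyp4a14 held 62.0% ± 6.37 of the summed CPM in control xenografts and 62.2% ± 2.14 in No-Trp xenografts, and Cyp4a12a and Cyp4a12b together held 4.42% ± 3.61 and 4.55% ± 2.02 (SD, n = 3 each). The diet groups overlapped in both shares.

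**Figure D4:**
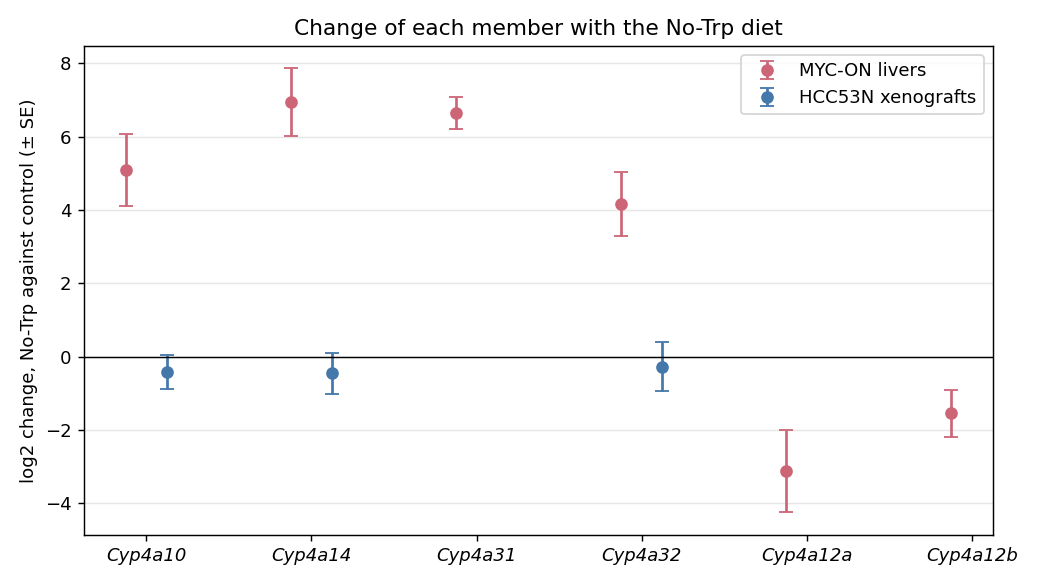
The log2 change of each member with the No-Trp diet (y axis, points with SE bars) from separate edgeR fits of the 6 livers and the 6 xenografts. Liver points reach from -3.12 for Cyp4a12a to 6.95 for Cyp4a14, and the 3 members tested in xenografts lie between -0.45 and -0.27. Cyp4a31, Cyp4a12a and Cyp4a12b have no xenograft point because they did not pass the filter on low counts.

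In a fit of all 12 libraries, the log2 change with diet in xenografts minus that in livers was -7.36 for Cyp4a14, -5.45 for Cyp4a10 and -4.34 for Cyp4a32. No value is given for the other 3 members, which did not pass the filter in xenografts. By this interaction test 6.01% of the 15472 genes were called lower and 12.7% in either direction, and nothing is read from it for the members because it contains the liver comparison.

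Between the models on the control diet, the 3 members that also passed the filter in xenografts were compared by edgeR, where 20.2% of the 15472 genes tested were called lower in xenografts and 43.5% in either direction. Cyp4a32 was lower in xenografts (log2 -3.50, SE 0.85, edgeR adjusted p = 0.00428), and without liver 102 its difference was -1.84 (adjusted p = 0.00813). Cyp4a10 was lower as well (-2.75, SE 0.77, edgeR adjusted p = 0.00947), with -1.37 (adjusted p = 0.0488) without liver 102. For Cyp4a14 the log2 difference was -1.10 (SE 0.71, 95% interval -2.66 to 0.46, edgeR adjusted p = 0.203). It was -1.58 (edgeR adjusted p = 0.0486) without liver 101 and -0.17 (adjusted p = 0.836) without liver 102. The other 3 members entered this fit only through the livers, where they are higher, so their levels are given without a test. Cyp4a12a had 64.7 ± 86.7 CPM in control livers and 0.192 ± 0.0906 CPM in control xenografts, and Cyp4a12b had 28.5 ± 4.34 and 0.218 ± 0.159 CPM (SD, n = 3 each). Cyp4a31 had 0.394 ± 0.200 and 0.137 ± 0.0523 CPM, which rest on 24 reads over the 3 control livers and 8 over the 3 control xenografts. The 19 listed hepatocyte markers moved with this comparison, as their summed CPM was 20434 to 64803 in control livers and 1446 to 3663 in control xenografts. Their part in the result was not tested, and model, site, host and, where it differs, sex cannot be told apart here.

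The receptor side of the pathway moved in the same livers. Ppara, which encodes PPARα, had 57.7, 137.2 and 75.6 CPM in control livers 101, 102 and 103 and 408.9, 590.4 and 272.3 CPM in No-Trp livers 105, 107 and 108. The groups did not overlap and Ppara rose by a log2 change of 2.25 (SE 0.41, edgeR adjusted p = 0.0196). Among 18 genes for PPAR receptors and cofactors tested, 4 rose with all livers in the fit, namely Ppara, its DNA-binding partner Rxra (1.46, edgeR adjusted p = 0.0210), the coactivator gene Ppargc1a (1.54, 0.0280) and Pparg (1.02, 0.0477). Ppard did not pass (0.41, 0.169). The median log2 change of the 18 was 0.48, against 0.00 over all genes, of which 9.28% were called higher. Ppara lost its call without mouse 101 (edgeR adjusted p = 0.0583), 103 (0.0884) or 105 (0.0559), while its log2 change stayed between 1.92 and 2.67. The 4 calls of this list fell to 0 without each of these mice and to 2 without 107. In the 6 fits that left out 1 liver, Rxra was called in 3, Ppargc1a in 2 and Pparg in 0 (edgeR adjusted p = 0.0564 to 0.128).

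Genes that work with the Cyp4a enzymes rose as well. Of 16 omega-oxidation partners tested, 11 rose (median log2 change 1.91). They included Por, which passes electrons to P450 enzymes (3.22, SE 0.45, edgeR adjusted p = 0.0142), and Ehhadh of peroxisomal fatty acid breakdown (3.10, SE 0.58, edgeR adjusted p = 0.0201). The 11 calls fell to 1 without mouse 101, to 0 without 103, to 2 without 105 and to 5 without 107, and the median log2 change was 1.68 to 2.42 in the fits without 1 liver. Por was called in 5 of these 6 fits and Ehhadh in 2. Of all genes tested in these livers, 9.28% were called higher by edgeR. The gene lists were chosen with earlier results of these data known. Of 74 PPARα target genes in 4 lists, some of them also partners, 44 rose by edgeR and 49 by DESeq2. By list these were 14 of 16 for the peroxisome, such as the thioesterase Acot3 (3.39), and 11 of 20 for the mitochondrion, such as Slc25a20 (1.87), which carries acylcarnitines into mitochondria. For lipid uptake and storage 9 of 21 rose, such as the lipid droplet gene Plin5 (2.53), and for secreted and other products 10 of 17, such as the fasting hormone gene Fgf21 (4.14). Abundant genes of these lists that were not called include Fabp1 (0.34, edgeR adjusted p = 0.609) and Apoa1 (0.81, 0.287). Of the 21 uptake and storage genes, 17 had a log2 change above 0. The 44 calls fell to 12 without mouse 101, to 2 without 103, to 21 without 105 and to 29 without 107, and rose to 57 without 102. The median log2 change of the peroxisome list stayed between 1.39 and 1.82 in these fits. Acot3 and Plin5 were called in all 6, Fgf21 in 5 and Slc25a20 in 4. Of the other Cyp4 genes, 3 of 8 tested rose, namely Cyp4b1 (1.75), Cyp4f13 (1.39) and Cyp4f17 (2.24). None of them was called without mouse 101, 103, 105 or 108, 1 of the list was called without 107 and 5 were without 102.

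In xenografts Ppara was at 0.718 to 2.80 CPM on the control diet and 1.06 to 3.19 CPM on the No-Trp diet, with a log2 change of 0.00 (edgeR adjusted p = 0.998). Of 71 PPARα target genes tested there, 4 rose by edgeR, beside 0.245% of all 14704 genes tested. Of 74 targets tested by DESeq2, 9 rose and 1 fell. Those called by edgeR included Cidec (4.86, edgeR adjusted p = 0.0137), a lipid droplet gene of adipocytes, and Abcd2 (3.03, 0.0436), a peroxisomal transporter. Adipocyte markers, a list that also holds Cidec, moved with them. Of 8 such markers 4 were called higher, and their summed CPM was 21.3 to 79.7 in control and 435.7 to 900.4 in No-Trp xenografts. The part of adipocytes in the xenograft values was not tested. Diet and resubmission mark partly coincide in xenografts, as given above, so their parts in these calls are not fully separated. Cyp4a14, Cyp4a10 and Cyp4a32 had log2 changes below 0 in the same xenografts, as given above.

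**Figure D5:**
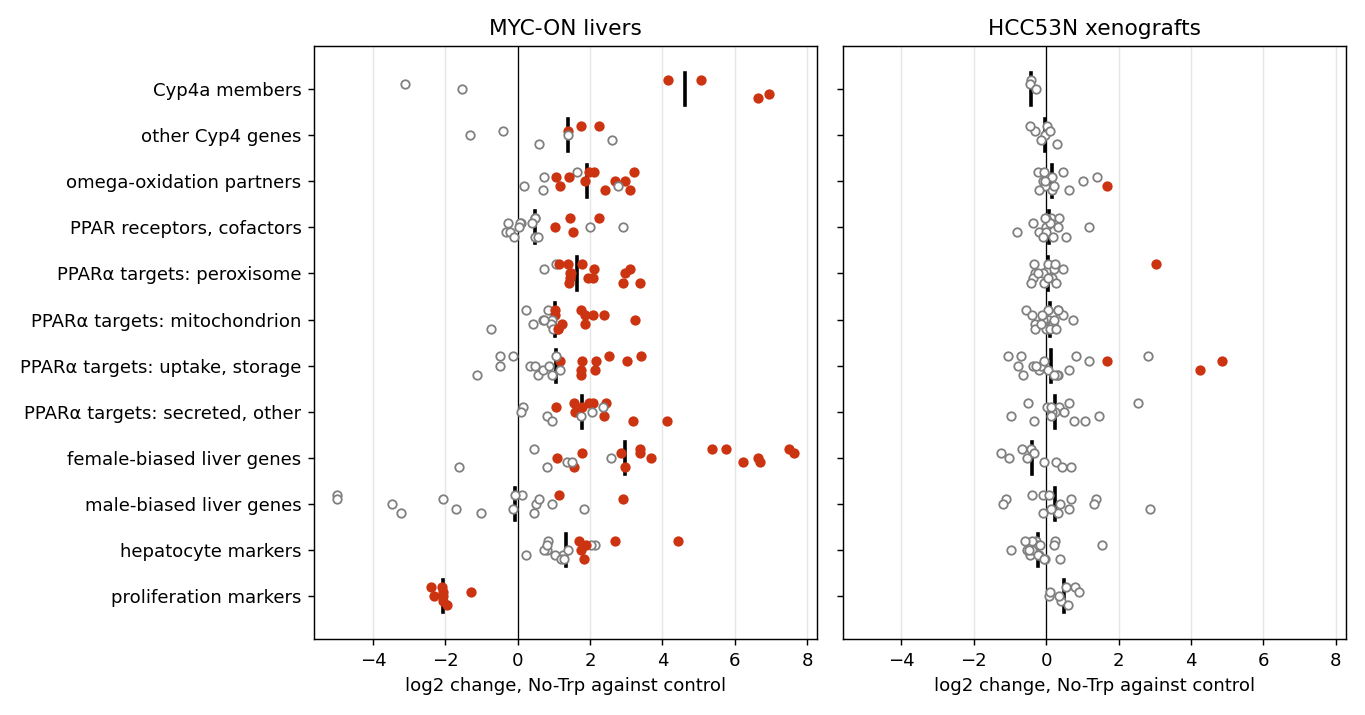
Each point is the log2 change of 1 gene with the No-Trp diet (x axis) in livers or xenografts, grouped by gene list (y axis), with a black bar at the list's median. Filled points were called by edgeR and open points were not, and the medians of the 4 PPARα target lists are 1.02 to 1.77 in livers and 0.04 to 0.24 in xenografts. The fill of the Cyp4a members in livers is not read as a result, since the members were picked on this comparison.

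Several cell markers moved in the livers beside the Cyp4a genes. By edgeR, 9.28% of all genes tested there were called higher and 7.27% lower. The summed CPM of the hepatocyte markers was 20434 to 64803 in control and 77395 to 188400.4 in No-Trp livers, and 6 of 18 tested rose. These 6 calls fell to 0 without mouse 101, 103 or 105 and to 1 without 107, and rose to 11 without 102. Proliferation markers summed to 1601 to 1779 CPM in control and 171.0 to 535.8 CPM in No-Trp livers, and 8 of 8 fell (median log2 change -2.06). The 8 calls fell to 0 without mouse 101, 103 or 105 and to 5 without 108, with a median of -2.36 to -1.65 over the fits without 1 liver. Erythroid markers summed to 45.1 to 495.5 CPM in control and 7.15 to 18.3 CPM in No-Trp livers. Of the 9 erythroid genes 5 or 6, all of them hemoglobin genes, were at 0 in each liver, and the 3 tested fell, such as Alas2 (-3.65, edgeR adjusted p = 0.0202), which starts heme synthesis in red cell precursors. All 3 were called without mouse 101, 102 or 108 and 0 without 103, 105 or 107. Liver tumor markers summed to 23389 to 29436 CPM in control and 2407 to 13668 CPM in No-Trp livers, mostly from H19 and Igf2, and of 9 tested edgeR called 0, DESeq2 called 2 lower and 3 were lower at an unadjusted p under 0.05. Of 4 adipocyte markers tested 1 rose (Cidec, also listed as a PPARα target) and 1 fell (Fabp4), and the same counts held for 9 endothelial and stellate markers. Of 9 leukocyte and Kupffer markers edgeR and DESeq2 called 0, with 2 lower at an unadjusted p under 0.05, and of 7 skin and muscle markers 0 were called by either tool or had an unadjusted p under 0.05. Kidney markers, which could mark another tissue rich in Cyp4a, had 1 of 7 genes tested, Slc22a6 (-1.86, edgeR adjusted p = 0.0563). Slc22a6 was not called by edgeR, but it was called lower by DESeq2 and was lower at an unadjusted p under 0.05. The part of cell content in the Cyp4a values was not tested.

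Sex-biased liver genes were examined because Cyp4a12a and Cyp4a12b are male-biased and Cyp4a14 and Cyp4a10 are often higher in females. Of 21 female-biased genes tested, 15 rose in No-Trp livers (median log2 change 2.96), such as Cyp2b9 (6.70, edgeR adjusted p = 0.00432) and Cyp2b13 (6.65, 0.00517). The called genes included Acot3 and Acot4, which also stand in the peroxisome list of PPARα targets. Without mouse 103, 2 of the female-biased genes were called, and without mouse 101, 6. Of 17 male-biased genes tested 2 rose and 0 fell by edgeR, with 3 higher and 2 lower at an unadjusted p under 0.05, and the median was -0.08. Over all genes tested in these livers, edgeR called 9.28% higher and 7.27% lower. DESeq2 tested 9 of these and called 3 higher and 1 lower. The list turned on control mouse 102, without which 10 rose and 1 fell and the median was 1.76. Mup3, a male-biased urinary protein gene, had a log2 difference of -4.98 (SE 1.64, edgeR adjusted p = 0.0644), and Cyp2d9 had 0.95 (0.574). Without mouse 102 the values were -1.03 (edgeR adjusted p = 0.0978) for Mup3 and 4.13 (6.57e-04) for Cyp2d9. The summed CPM of the male-biased genes was 404.5 to 4596 in control livers and 1265.5 to 1575 in No-Trp livers, so the control group spanned the No-Trp group.

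Likeness to other genes was measured over the 6 livers as the root mean square difference of log2 CPM after each gene was centered on its own mean, among 10749 genes. Cyp4a10, Cyp4a14, Cyp4a31 and Cyp4a32 lay 0.72 to 1.39 from each other and 3.69 to 5.02 from Cyp4a12a and Cyp4a12b, which lay 1.22 from each other. The gene nearest to Cyp4a31 and Cyp4a14 was Cyp2a22 (0.27 and 0.74), another P450 gene. Tat, which breaks down tyrosine, was nearest to Cyp4a10 (0.48), and Tdo2, which opens the tryptophan ring, was nearest to Cyp4a32 (0.25). Cyp4a12a was nearest to the complement gene C4a (0.60) and to Mup20 (0.73). Cyp4a12b was nearest to Ckap2, Dpf1, Melk and Fignl1 (0.18 to 0.21), of which Ckap2 and Melk are known from dividing cells. These distances are descriptions that share the libraries and the diet groups.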

How the data were processed

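Polyadenylated RNA of 6 MYC-ON livers and 6 HCC53N xenografts was sequenced, and the authors deposited 1 table of raw read counts per gene symbol for each sample, made with HTSeq. The submitters' processing notes list Trim Galore, STAR 2.7.2b, SAMtools 1.9 and the builds mm10 and GRCm38.p6. The strand setting and overlap mode of the counting are not given in the sources used here. Rows that name no gene (24.7% to 39.4% of the reads per library) were left out of library sizes. Control liver 101 stood apart with 12.1% of its counted reads on Rn45s, a ribosomal RNA gene.

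Samples were grouped by the labels. Counts were tested in R 4.3.3 with edgeR 4.0.16 (TMM, filterByExpr, robust quasi-likelihood fit, Benjamini-Hochberg adjustment over all genes tested). SE is the log2 fold change divided by the square root of F, and 95% intervals use the t quantile at the test's degrees of freedom. Livers and xenografts were fitted separately, and the contrasts between models used all 12 libraries. Library totals limit the precision of low counts. DESeq2 1.42.0, other scalings, other filters, summed copies and left-out libraries were tried as alternatives. On simulated counts with 200 changed genes in the liver design, 78.0% of 4-fold and 93.0% of 16-fold changes were recovered, and 7.57% of calls fell on unchanged genes. Sequences and positions are GENCODE M21 on GRCm38.

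The members and gene lists (282 symbols, of which 279 were in the tables) were chosen with earlier results of these data known. All members were named. From the other lists, PPAR receptors and the called genes with the largest changes were eligible, beside up to 2 abundant uncalled genes per list, and for likeness the 5 nearest genes, with a mean of at least 100 counts.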

Additional observations from a re-analysis of the deposited data

Results flagged for a closer look

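The values below set the diet responses of the models side by side for 3 members. They are a description only, and the difference between the models was not tested for them, because it contains the liver comparison on which the members were picked. The log2 change with the No-Trp diet in xenografts minus that in livers in the fit of all 12 libraries was -7.36 for Cyp4a14, -5.45 for Cyp4a10 and -4.34 for Cyp4a32. In livers every No-Trp mouse was above every control mouse for these genes, and in xenografts the diet groups overlapped. Leaving out each library in turn gave -8.31 to -6.88 for Cyp4a14, -6.85 to -4.94 for Cyp4a10 and -6.02 to -3.90 for Cyp4a32. Groups of 3 mice are too small for a search for single deviating samples.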

How the results depend on the processing

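No paired analysis was possible because no mouse numbers are shared between groups. In livers, all 6 members kept their direction under every alternative that gave a value, and Cyp4a31 had none with at least 10 counts in every library, which it did not reach. The kept direction is a description only, since the members were picked on this comparison. Without each library in turn, the log2 change ranged from 4.57 to 6.47 for Cyp4a10, 3.71 to 5.83 for Cyp4a32 and -3.70 to -1.01 for Cyp4a12a, with the extremes 6.47, 5.83 and -1.01 all without control liver 102. Within the marked livers it was 7.71 for Cyp4a10, 8.72 for Cyp4a14, 5.58 for Cyp4a32 and -0.65 for Cyp4a12a. The summed row of Cyp4a10, Cyp4a31 and Cyp4a32 gave 4.85, against 6.65 for Cyp4a31 alone. Genes called higher in livers numbered 1311, or 732 with library totals and 7 to 1959 without single libraries. Genes called lower numbered 1026, or 1696 with no threshold on the fold and 1 to 1248 without single libraries, with both low counts from leaving out control liver 103. Of the PPARα targets, 2 to 57 were called higher and 0 to 1 lower in the same fits, and no other alternative moved the 44 higher calls by over 1.5 times. In xenografts, where edgeR called 36 genes higher and 17 lower, the counts were 250 and 130 with DESeq2, 56 and 26 with RLE size factors, 60 and 11 with library totals, 73 and 45 without a filter, 10 and 5 with at least 10 counts in every library, 57 and 28 without Rn45s, 3 and 1 with the resubmission mark as a covariate, 18 and 5 in the fit of 12 libraries, and 7 to 35 and 2 to 43 without single libraries. The log2 change of Cyp4a32 in xenografts, with no call in any fit, was -0.74 to 0.06 without single libraries and turned to 0.06, 0.03 and 0.05 without mice 37, 43 and 40. For the interaction, the calls were 1036 higher and 930 lower, with 1473 lower by DESeq2, 1825 and 437 with library totals, and 467 to 1195 and 449 to 1386 without single libraries. The cause of these shifts was not tested. Left-out fits with fewer samples have less power by construction. Levels per kb moved by less than 1 SD with the length of the longest transcript. The list calls without each liver were chosen after seeing the data.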

Other observations

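Enzymes of arachidonic acid and eicosanoid metabolism, which share substrates with Cyp4a12a, were mostly not called in No-Trp livers. Of 17 tested, 3 rose by edgeR, namely Cyp2c38 (log2 change 3.63, adjusted p = 0.0127), Cyp2c39 (3.28, 0.0196) and Ephx1 (3.11, 0.0294), and the epoxide hydrolase Ephx2 had 1.55 (0.0814). Without mouse 102, 9 of the list were called higher, against 0 without 103 and 1 without 101 or 105. Of 13 genes of growth hormone signalling, 1 rose, the feedback inhibitor Socs2 (2.40, SE 0.47, edgeR adjusted p = 0.0211). For scale, edgeR called 9.28% of all genes tested in these livers higher, so nothing is read from this single call. The call of Socs2 was lost in 3 of the 6 fits that left out 1 liver.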
